A study of Rattus norvegicus with 232 samples.

Results

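SHR/OlaIpcv, the spontaneously hypertensive rat, was set against BN-Lx/Cub in brain, gene by gene. The members were taken by the strain label, which names 23 SHR/OlaIpcv and 4 BN-Lx/Cub samples among the 232 samples of the series. Both groups are untreated adult male rats of inbred strains, for which no transgene or agent is named; 10 of the SHR/OlaIpcv labels carry no sex tag, and 4 of these no treatment tag. RNA of frozen tissue labelled whole brain was depleted of ribosomal RNA and made into stranded libraries, and by the study's methods a brain was split along the midline and a single side was used. Each strain is 1 inbred line, so that what is measured is a pair of genotypes and not hypertension against normal blood pressure. The strains are called SHR and BN-Lx below.

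SHR was bred from Wistar stock for high blood pressure and is used as a model of hypertension, insulin resistance and, in some colonies, attention deficits. Its best known mutation disables Cd36, a fatty acid transporter. BN-Lx is a Brown Norway line that carries the luxate mutation in Zbtb16, which malforms the hind limb. The 2 strains are the progenitors of the HXB/BXH recombinant inbred strains, each of which fixed a different mosaic of SHR and BN-Lx chromosomes.

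The RefSeq gene table of version 7.1 held 20859 genes after its spike-ins were set aside. It held 18 SHR libraries, of which 12 carry animal number 1 and 6 carry animal number 4, and 4 BN-Lx libraries, with 1 each for animals 1 and 2 and 2 for animal 3. Libraries with the same number were averaged, on the reading that they are repeats of 1 animal, which left 2 SHR animals against 3 BN-Lx animals. Whether the animals of a strain shared a litter or a cage is not stated, and the p-values do not measure such a spread. They rest on a spread between animals pooled over all 73 strains of the table, not on these 5 animals alone. The values are on a log2 scale made by the authors, no counts were given for them, and the depth of each library is therefore unknown. The library medians of the 2 strains lay between 8.18 and 8.38. The Y-linked genes Eif2s3y, Kdm5d and Uty stood between 10.01 and 11.76 in all 5 animals, while Ddx3y, also Y-linked, was listed at 2.77 to 3.10 in all 5. At the 90 genes called under 11 settings tried on this table, which leave out the filter on level, a library was placed between the BN-Lx mean, set at 0, and the SHR mean, set at 1: the SHR libraries lay at 0.88 to 1.19 and the BN-Lx libraries at -0.03 to 0.05, so that each stood with its label. These genes were chosen on the same libraries, so this describes the spread and tests nothing. BN-Lx animal 1 stood furthest from the rest of its strain. It differed from the mean of animals 2 and 3 by at least 0.5 in 3437 genes. By the same measure there were 1896 for animal 2 and 164 for animal 3, and 90 between the 2 SHR animals. These animal values average 1, 1 and 2 BN-Lx libraries and 12 and 6 SHR libraries. Averaging lowers the noise of single libraries, so the counts are not like for like.

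The first question was how many genes differ between the strains and how far. Of the 20859 genes, limma called 964 at a false discovery rate (FDR) of 5%, or 4.62%. In SHR 396 were higher, or 1.90% of all genes, and 568 were lower, or 2.72%. The median absolute difference was 0.61 among the called genes and 0.14 over all genes. A difference of at least 2-fold, 1 on the log2 scale, was reached by 134 called genes, or 0.642%, with 59 higher and 75 lower in SHR. In 962 of the 964 called genes the animals of the strains did not overlap, which also held for 38.9% of all genes. Placeholder symbols, which mark predicted genes and pseudogenes, made up 24.5% of all genes, 30.2% of the called genes and 61.9% of those past 2-fold. Among them were the largest differences of the table, LOC100363268 at 4.56 and LOC120097345 at -3.42. Differences are given throughout as SHR minus BN-Lx on the log2 scale, with the standard error (SE) of the limma fit.

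**Figure D1:**
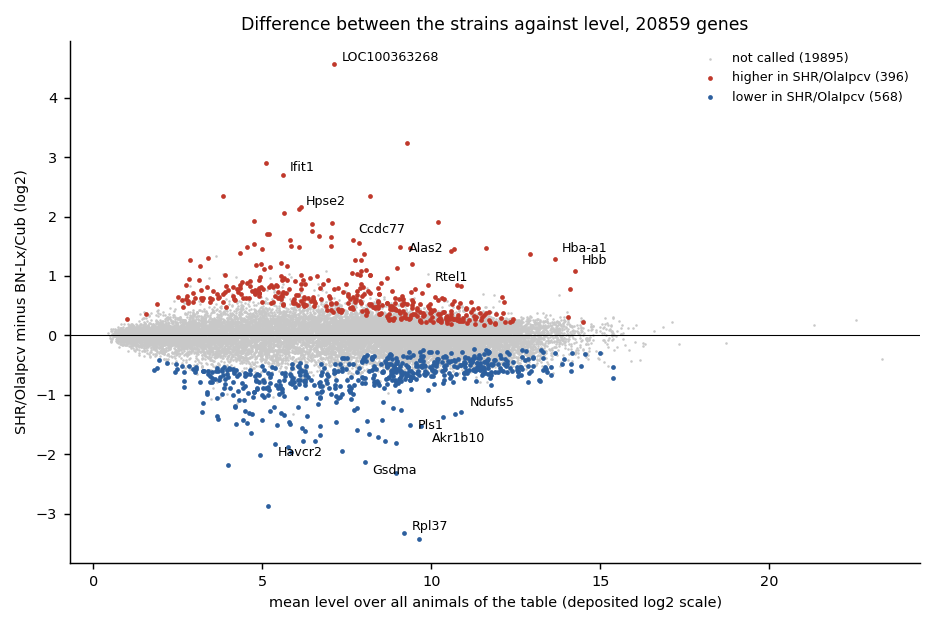
Each point is a gene, with its mean log2 level over all 194 animals of the table on the horizontal axis and the SHR/OlaIpcv minus BN-Lx/Cub difference (log2) on the vertical axis. Red points are the 396 genes called higher in SHR/OlaIpcv and blue points the 568 called lower. Of the 134 called differences past 2-fold, 107 lie below the median level and 27 above it, Hbb and Hba-a1 among the latter.

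The count of called genes varied with the animals in the fit and with the spread borrowed from other strains. Without BN-Lx animal 1 there were 362 calls, without BN-Lx animal 2 there were 1823 and without BN-Lx animal 3 there were 996. Fewer genes than in the whole fit were called without either SHR animal. Such a fit sets 1 SHR animal against 3 BN-Lx animals, so the fall does not show that the calls rest on the animal left out. A fit to the 2 strains alone called 143. With batch as a factor over single libraries 3233 were called, 1370 higher and 1863 lower, with 921 of the 964 among them. Counts of list members under a setting are to be read against the total of that setting. The count past 2-fold moved less, from 103 to 159 when single animals were left out. The strains shared batches 3, 4 and 6, in which the SHR library was that of animal 1. The BN-Lx libraries of batches 4 and 6 were both of animal 3, so these batches are not separate comparisons. Within them, the difference had the direction of the pooled fit in all 3 batches for 97.9% of the called genes and 50.0% of all genes, although those libraries are part of the pooled values. Under each of these 11 settings 90 genes stayed called in the same direction, 31 of them with a gene name. These 31 include most of the genes described first below.

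Enzymes and cell structure genes with large and steady differences came first among those lower in SHR. Akr1b10 (ENSRNOG00000009734, rn6 chromosome 4, 61772064 to 62049717), an aldo-keto reductase that reduces reactive aldehydes, stood at 10.41, 10.33 and 10.61 in the 3 BN-Lx animals and at 8.88 and 8.97 in the 2 SHR animals. The 12 libraries of SHR animal 1 ran from 8.57 over a median of 8.87 to 9.18, and the 6 of animal 4 from 8.88 over 8.95 to 9.07. Every SHR library lay below every BN-Lx library. Here and below, libraries of an animal are repeats and not replicates of the strain. The share of all genes with libraries apart was not counted. The difference was -1.52 ± 0.15 (SE; adjusted p 2.8e-14, limma), and within batches 3, 4 and 6 it was -1.80, -1.75 and -1.72. Pls1 (ENSRNOG00000009945, rn6 chromosome 8, 103557364 to 103680047), an actin-bundling plastin, stood at 9.85, 9.78 and 9.90 in BN-Lx against 8.54 and 8.14 in SHR, again with no library of one strain inside the range of the other (-1.51 ± 0.15, adjusted p 8.4e-15). Gsdma, a pore-forming gasdermin of epithelia, fell further than any other gene with a name except Rpl37. Its BN-Lx animals lay at 9.02, 8.56 and 8.91 and its SHR animals at 6.93 and 6.48, a difference of -2.12 ± 0.19 (adjusted p 1.4e-16). Gsdma lies below the median level of 8.32 and is on no list, which puts it outside the rule for named genes. It was chosen after its values were seen, as were Hpgds, Nat8f1, Mei1, Clca1, Brca2, Hpse2, Rhbdl2, Ccdc77, Cyb561a3, Havcr2, Siglec5, Ifit1, Ifi44l and Hba-a3 below. The prostaglandin D synthase Hpgds (-1.96 ± 0.25), the acetyltransferase family gene Nat8f1 (-1.03 ± 0.16), the meiosis gene Mei1 (-1.05 ± 0.18) and Clca1, a secreted regulator of chloride conductance (-1.34 ± 0.20), were also lower in SHR with adjusted p of at most 1.7e-05.

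Further genes lower in SHR bear on the cytoskeleton, lipids and DNA repair. Agbl4, a carboxypeptidase that trims glutamate chains from tubulin, stood at 9.06, 9.12 and 9.30 in BN-Lx against 8.37 and 8.31 in SHR (-0.82 ± 0.14, adjusted p 4.2e-06). Etnppl, an astrocyte enzyme that breaks down phosphoethanolamine, stood at 8.93, 8.98 and 8.90 against 8.08 and 8.01 (-0.89 ± 0.22, adjusted p 0.0049). Brca2, a gene of DNA repair by recombination that lies below the median level, differed by -1.23 ± 0.16 (adjusted p 5.5e-09), from 8.94, 8.18 and 8.36 in BN-Lx to 7.28 and 7.25 in SHR. In each of these genes the SHR libraries lay below the BN-Lx libraries. Agbl4 and Brca2 were called under 10 of the 11 settings and Etnppl under 8.

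Among genes higher in SHR, Rtel1 (ENSRNOG00000027513, rn6 chromosome 3, 176751127 to 176856530), a helicase that protects telomeres, was called under all 11 settings. It stood at 9.40, 9.29 and 9.42 in BN-Lx and at 10.23 and 10.20 in SHR, with SHR libraries from 9.86 to 10.53 (0.85 ± 0.13, adjusted p 3.8e-07). Ddx56, a nucleolar RNA helicase, rose from 9.06, 9.07 and 9.03 to 9.78 and 9.89 (0.78 ± 0.15, adjusted p 1.1e-04). Abca9, a lipid transporter family gene, stood at 8.12, 7.91 and 8.21 against 8.86 and 9.05 (0.88 ± 0.15, adjusted p 1.2e-05). Below the median level, Hpse2, a heparanase relative that binds heparan sulfate, stood at 5.87, 5.70 and 5.39 in BN-Lx and at 7.52 and 8.03 in SHR (2.13 ± 0.20, adjusted p 3.2e-16). Rhbdl2, a rhomboid protease of membranes, differed by 1.93 ± 0.22, the coiled-coil gene Ccdc77 by 1.60 ± 0.20 and Cyb561a3, a cytochrome that reduces iron, by 1.02 ± 0.12, each with adjusted p of at most 9.4e-10. The libraries of the strains did not overlap for any of these 7 genes, which describes repeats of few animals and tests nothing.

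**Figure D2:**
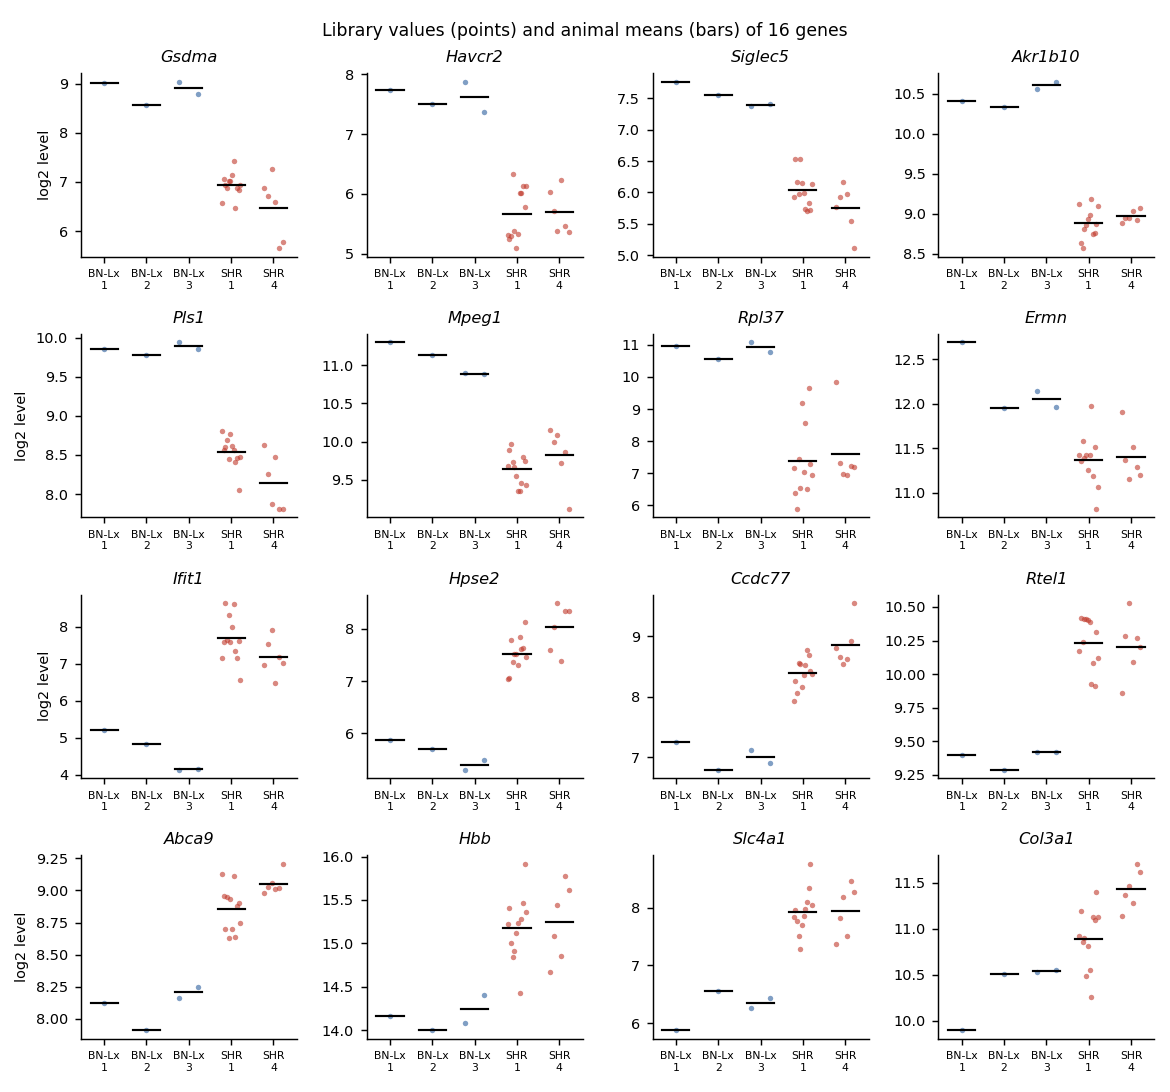
Log2 levels of 16 genes by animal. Each point is a library, blue for BN-Lx/Cub and red for SHR/OlaIpcv, and each bar is the mean of an animal. In Akr1b10, Pls1, Rtel1 and Ifit1 no library of one strain reaches the other, while the Ermn libraries overlap and BN-Lx/Cub animal 1 stands at 12.69.

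Havcr2, Siglec5, Mpeg1 and Il33, genes of immune and glial cells named by the rule for single genes or after their values were seen, were lower in SHR. Other immune cell genes, also chosen after their values were seen, were higher: Alox15 by 1.26 ± 0.35, Ccl24 by 1.16 ± 0.24, Slc11a1 by 1.01 ± 0.19 and Fcrl2 by 1.01 ± 0.22. In the version 5 table, described below, Slc11a1 was also called (0.69), and Alox15 (-0.09), Ccl24 (0.72) and Fcrl2 (0.35) were not. Havcr2 (ENSRNOG00000031443, rn6 chromosome 10, 31561895 to 31593882), which encodes the checkpoint receptor TIM-3 of T cells and microglia, stood at 7.74, 7.50 and 7.62 in BN-Lx and at 5.67 and 5.70 in SHR, with SHR libraries from 5.09 to 6.34 (-1.94 ± 0.14, adjusted p 3.1e-22). Siglec5, a sialic acid receptor of myeloid cells, stood at 7.77, 7.56 and 7.40 against 6.03 and 5.75 (-1.68 ± 0.16, adjusted p 5.0e-15). Mpeg1, a pore-forming protein of macrophages and microglia, stood at 11.30, 11.13 and 10.89 against 9.64 and 9.82 (-1.38 ± 0.18, adjusted p 3.4e-09). Il33, an alarmin of oligodendrocytes and astrocytes, stood at 10.88, 10.08 and 10.40 against 9.72 and 9.54 (-0.82 ± 0.19, adjusted p 0.0021), and here the libraries overlapped. It was called under 7 of the 11 settings, and not without BN-Lx animal 1 (-0.61, adjusted p 0.11, limma). Of the 13 microglia markers none was called, which at 4.62% of all genes is no result about the list, and their median difference was 0.05. With batch as a factor 3 of them were higher and 2 lower, and without BN-Lx animal 2, 2 were higher and 3 lower, settings that called 3233 and 1823 of all genes. In version 5, an Ensembl 96 gene table of both strains that shares libraries with the RefSeq table, 1 of 12 was lower, with a median of -0.16. The mean of that list was 8.82, 8.92 and 8.85 in the BN-Lx animals and 8.78 and 8.91 in the SHR animals.

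Interferon-stimulated genes are switched on through promoter elements read by interferon-activated factors. Of the 17 listed members 2 were higher in SHR, none was lower and 15 did not pass, against 1.90% of all genes higher, with a median difference of 0.23 against 0.021 over all genes. With batch as a factor 6 were higher, beside 1370 of all genes. Without BN-Lx animal 2 there were 2 and without BN-Lx animal 1 there was 1, beside 567 and 197 of all genes. The median was 0.26 without SHR animal 1, 0.20 without SHR animal 4 and 0.21 with the libraries of shared batches alone. In the version 5 table, 2 of 16 were higher and 1 lower, with a median of 0.03. Irf7, a master regulator of the response, stood at 7.61, 7.72 and 7.02 in BN-Lx and 8.52 and 8.48 in SHR (1.05 ± 0.22, adjusted p 4.5e-04). Rsad2, an antiviral enzyme, stood at 7.95, 7.92 and 7.90 against 8.76 and 8.57 (0.74 ± 0.21, adjusted p 0.021). Ifit1 (ENSRNOG00000019050), which binds foreign RNA and was not on the list, had the largest rise of any gene with a name. It stood at 5.20, 4.84 and 4.15 in BN-Lx and 7.70 and 7.18 in SHR, with SHR libraries from 6.49 to 8.65 and within-batch differences of 3.63, 3.50 and 3.44 (2.71 ± 0.33, adjusted p 1.9e-10). Ifi44l, also induced by interferon, went the other way, from 6.60, 6.09 and 5.98 to 4.59 and 4.22 (-1.82 ± 0.25, adjusted p 8.1e-09). Ifit1 and Ifi44l were called under all 11 settings, Irf7 under 10 and Rsad2 under 6.

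The promoter stretches of Irf7, Rsad2 and Ifi44l are shown because each holds the same element while Irf7 and Rsad2 were higher and Ifi44l was lower. Ifi44l, like Ifit1, is not on the list and was added after its value was seen. They are the 250 bases before the gene's start in RefSeq (build GRCr8), 5′ to 3′ on the gene's strand, and the capitals mark the interferon-stimulated response element, searched as GAAA, any 2 bases and GAAA again, or as TTTC, any 2 bases and TTTC on the other strand.
Irf7 (chr1:205800024-205800273, minus strand): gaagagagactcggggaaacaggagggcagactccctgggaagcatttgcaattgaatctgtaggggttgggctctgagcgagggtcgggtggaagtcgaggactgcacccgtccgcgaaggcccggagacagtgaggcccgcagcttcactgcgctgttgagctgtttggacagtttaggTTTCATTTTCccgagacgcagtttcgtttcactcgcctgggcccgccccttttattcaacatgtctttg
Rsad2 (chr6:48788121-48788370, minus strand): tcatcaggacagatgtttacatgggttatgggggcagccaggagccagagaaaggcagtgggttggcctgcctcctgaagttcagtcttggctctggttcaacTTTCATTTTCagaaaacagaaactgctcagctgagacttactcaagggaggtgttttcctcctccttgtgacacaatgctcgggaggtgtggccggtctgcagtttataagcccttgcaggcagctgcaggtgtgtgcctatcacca
Ifi44l (chr2:243328473-243328722, plus strand): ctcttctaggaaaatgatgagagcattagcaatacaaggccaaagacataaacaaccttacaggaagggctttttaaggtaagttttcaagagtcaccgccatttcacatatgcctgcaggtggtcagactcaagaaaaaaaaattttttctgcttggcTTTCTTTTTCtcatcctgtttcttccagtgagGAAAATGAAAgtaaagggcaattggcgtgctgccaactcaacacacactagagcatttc
Of 27457 promoters searched in the same length 3.29% held these letters. The element starts 69 bases before the start of Irf7 and 147 before that of Rsad2, and Ifi44l holds 2 copies, at 91 and 59 bases. Of the 11 listed interferon genes with a RefSeq promoter, 9 held it. A match is a description of letters, and these are reference sequences, not those of SHR or BN-Lx.

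The RT1 genes of the major histocompatibility complex (MHC), which present peptides to T cells and differ widely between rat strains, went both ways. Of 34 members 4 were higher, 9 were lower and 21 did not pass, against 4.62% of all genes called, and the median difference was -0.00. In the version 5 table, none of 15 members was higher and 7 were lower, with a median of -0.17. RT1-T24-3 rose from 5.84, 6.13 and 5.75 to 7.86 and 7.70 (1.87 ± 0.27, adjusted p 8.7e-08), and RT1-T24-4 fell from 9.07, 9.15 and 8.90 to 7.70 and 7.53 (-1.43 ± 0.18, adjusted p 9.4e-10). RT1-A1 stood at 8.45, 9.50 and 8.93 against 10.10 and 10.75 (1.47 ± 0.29, adjusted p 2.5e-04). It was called under 8 of the 11 settings, and its difference was 0.92 with batch as a factor and 1.14 without SHR animal 4. These genes are near copies of each other and vary in sequence between strains, so that reads can be split between them or lost, and their values are uncertain. Of the 9 class II genes, which serve antigen-presenting cells, 3 were lower and none higher, with a median of -0.54. They were RT1-Ba (-1.04 ± 0.23), RT1-Bb (-0.75 ± 0.22) and Cd74, the invariant chain encoded outside the MHC (-0.75 ± 0.22). Cd74 stood at 9.08, 9.10 and 9.26 against 8.16 and 8.62. Without SHR animal 1 no class II gene was called, without SHR animal 4 there was 1 and without BN-Lx animal 1 there were 2. With batch as a factor 6 class II genes were lower, beside 1863 of all genes. Without BN-Lx animal 2 there were 4, beside 1256 of all genes. With the libraries of shared batches alone the class II median was -0.75. In the version 5 table, 5 of 8 were lower, with a median of -0.71. The 4 higher and 9 lower calls among the RT1 genes became 3 and 5 without BN-Lx animal 1. They were 4 and 9 without BN-Lx animal 2, beside 567 and 1256 of all genes. With batch as a factor they were 10 and 12, beside 1370 and 1863 of all genes. With 1 SHR animal left, fewer RT1 genes stayed called, most of all fewer of the lower ones. The RT1 median was -0.06 without SHR animal 1 and -0.01 without SHR animal 4. It was -0.05 with the libraries of shared batches alone. Calr, a chaperone of class I molecules, was the single call among 12 antigen processing genes (0.30 ± 0.09, adjusted p 0.028). It was called under 5 of the 11 settings, and not without BN-Lx animal 1 (0.22, adjusted p 0.40, limma). With batch as a factor 3 antigen processing genes were higher and 1 lower, beside 1370 and 1863 of all genes.

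Most of the red blood cell genes tested were higher in SHR. Of 10 blood cell markers 6 were higher, 1 was lower and 3 did not pass, against 4.62% of all genes called, with a median difference of 1.18. Slc4a1, the red cell anion exchanger, stood at 5.88, 6.55 and 6.35 in BN-Lx and 7.93 and 7.93 in SHR (1.67 ± 0.34, adjusted p 3.3e-04). Alas2, the first enzyme of haem synthesis in red cells, stood at 8.45, 8.84 and 8.91 against 10.21 and 10.23 (1.49 ± 0.31, adjusted p 4.9e-04). Hbb, a beta globin, stood at 14.16, 14.00 and 14.24 against 15.18 and 15.24 (1.08 ± 0.30, adjusted p 0.020). Hba-a1, Hba-a2 and Hbb-bs rose by 1.28, 1.37 and 1.41. Hba-a3, another alpha globin copy, went down, at 7.34, 7.64 and 8.36 against 6.75 and 6.57 (-1.12 ± 0.31, adjusted p 0.017). The globin copies share most of their sequence, and how reads were split between them is uncertain. In whole tissue, more blood and more RNA per blood cell cannot be told apart. The blood list stood at 9.22, 9.35 and 9.37 in the BN-Lx animals and 10.00 and 10.09 in the SHR animals, and its part in the other results was not tested. The list means of single libraries ran from 9.47 to 10.66 in SHR animal 1 and from 9.68 to 10.46 in SHR animal 4. The libraries of the strains overlapped for Hba-a1, Hba-a2 and Hba-a3, and not for Slc4a1, Alas2, Hbb and Hbb-bs. Without BN-Lx animal 1 the list kept 3 higher and 1 lower call with a median of 1.11. With 1 SHR animal left, fewer members were called, and the median was 1.20 without SHR animal 1 and 1.16 without SHR animal 4. With the libraries of shared batches alone, also of 1 SHR animal, the median was 0.96, again with fewer calls.

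Some fibroblast and choroid plexus genes were higher in SHR, with the list means highest in SHR animal 4. Of 9 meningeal fibroblast markers 3 were higher (Col3a1, Slc6a13 and Igf2) and none lower, with a median of 0.47, against 1.90% of all genes higher. Col3a1, a fibrillar collagen, stood at 9.90, 10.51 and 10.54 in BN-Lx and 10.90 and 11.43 in SHR (0.84 ± 0.17, adjusted p 2.3e-04). Without SHR animal 4 none of the 9 was called and the median was 0.23, and without BN-Lx animal 1 there was 1 call and a median of 0.15. Of 10 choroid plexus markers only the water channel Aqp1 was called, against 4.62% of all genes (0.75 ± 0.23, adjusted p 0.034). Igfbp2, a growth factor binding protein of meninges and choroid plexus, differed by 0.83 ± 0.18. Aqp1 was called under 5 of the 11 settings and Igfbp2 under 8. Without BN-Lx animal 1 Aqp1 was not called (0.72, adjusted p 0.15, limma). Without SHR animal 4 the differences of Aqp1 and Igfbp2 were 0.60 and 0.64. In the version 5 values described below the medians of the 2 lists were -0.06 and -0.10, with no higher call. Of 8 meningeal markers there 1 was lower. With the libraries of shared batches alone the medians of the 2 lists were 0.11 and 0.01. The choroid plexus list stood at 9.15 in SHR animal 4, against 8.58 to 8.85 in the other 4 animals. Ins2, which lies beside Igf2 in RefSeq, was listed at 14.00, 13.98 and 14.30 against 14.77 and 14.99 (0.78 ± 0.20). It was called under 6 of the 11 settings, and not with batch as a factor (0.41, adjusted p 0.081, limma). Its SHR mean of 14.88 lay above that of Igf2, at 12.42, and what is counted under the name Ins2 is uncertain. The olfactory bulb list, a guide to how much of the bulb was taken, had no call and ran from 4.87 to 5.54 in BN-Lx and stood at 5.70 and 6.28 in SHR.

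**Figure D3:**
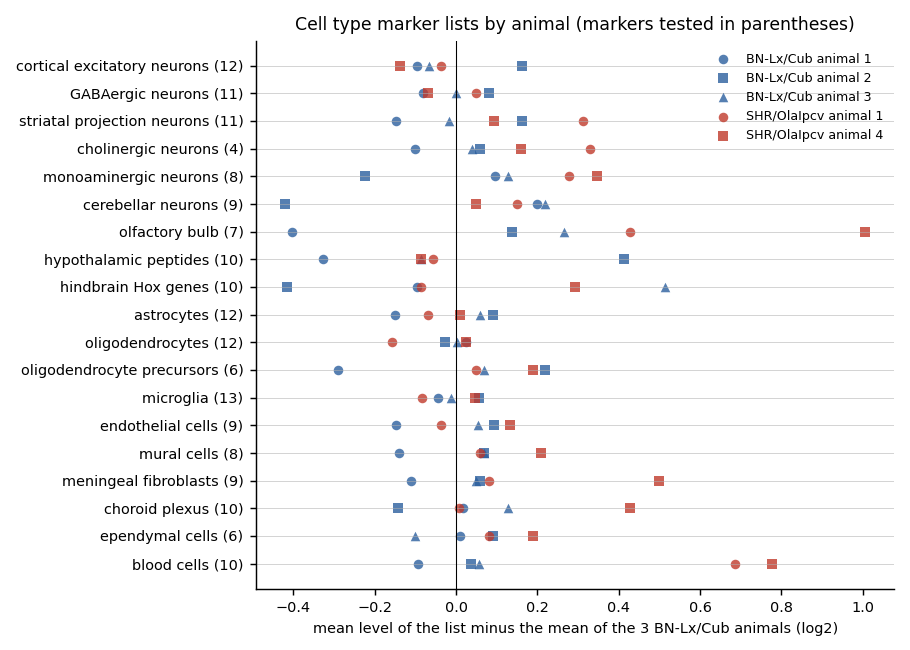
Mean log2 level of each marker list by animal, relative to the mean of the 3 BN-Lx/Cub animals, with blue marks for BN-Lx/Cub and red for SHR/OlaIpcv. In the blood cell list both SHR/OlaIpcv animals stand above all 3 BN-Lx/Cub animals, and the meningeal, choroid plexus and olfactory bulb lists reach highest in SHR/OlaIpcv animal 4.

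Of the 20 marker lists 14 had no called member, among them those of cortical excitatory, GABAergic, striatal, cholinergic, monoaminergic and cerebellar neurons, astrocytes, oligodendrocyte precursors and endothelial cells. In lists of 4 to 13 genes this is no result beside 4.62% of all genes called, and it does not show that the strains are alike: the striatal markers lay above 0 in 10 of 11, with a median of 0.17 and 3 called with batch as a factor, and the 4 cholinergic markers all lay above 0, with a median of 0.28. Of 12 oligodendrocyte markers Ermn, a cytoskeletal protein of myelin sheaths, and Mobp, a myelin protein, were lower in SHR, beside 2.72% of all genes. The list had a median of 0.02, with 6 members above 0 and 6 below. Mobp stood at 16.00, 15.42 and 15.68 in BN-Lx and 14.98 and 14.98 in SHR (-0.72 ± 0.19, adjusted p 0.012). Ermn stood at 12.69, 11.95 and 12.05 against 11.37 and 11.40 (-0.84 ± 0.23, adjusted p 0.014). Each was called under 6 of the 11 settings. Without BN-Lx animal 1 neither was called (adjusted p 0.20 for Mobp and 0.29 for Ermn, limma) and the list held 1 higher call, and without either SHR animal it held none. The appetite peptide gene Agrp was lower by a small difference of -0.39 ± 0.09. Its animals stood at 8.02 to 8.53 here but at 3.28 to 3.49 in the version 5 table, where the difference was 0.01. What is counted under that name is therefore uncertain. Abcc9, a potassium channel subunit of pericytes, was higher by 0.38 ± 0.12 (adjusted p 0.048, limma), the 1 call among 8 mural cell markers. Agrp was called under 8 of the 11 settings and Abcc9 under 4, with an adjusted p for Abcc9 of 0.33 without BN-Lx animal 1 and 0.37 without SHR animal 4.

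Some transmitter receptors and vesicle release genes were lower in SHR. In each of those named BN-Lx animal 1 was the highest animal, or level with the highest. Of 15 subunits of the GABA-A receptor, the main inhibitory channel, 4 were lower, among them Gabrb2, Gabra2 and Gabra3, and none was higher, with a median of -0.37, against 2.72% of all genes lower. Gabrb2 stood at 13.99, 13.47 and 13.51 against 13.12 and 13.04 (-0.57 ± 0.16, adjusted p 0.023). Gria2 and Gria3 of the AMPA receptor were the calls among 16 ionotropic glutamate receptor genes (-0.49 ± 0.15 and -0.37 ± 0.11), and Grm5 and Grm3 those among 8 metabotropic ones (-0.36 ± 0.11 and -0.31 ± 0.08). These lists had medians of 0.03 and 0.02, with 9 of 16 and 5 of 8 members above 0. Neither list held a call without BN-Lx animal 1, without either SHR animal or with the libraries of shared batches alone. With batch as a factor each had 1 higher and 2 lower, without BN-Lx animal 2 there were 3 and 2 lower, and in the version 5 table there was 1 call, a metabotropic gene that was higher. Of 22 vesicle release genes Snap25, a core fusion protein, was lower at 15.75, 15.51 and 15.57 against 15.11 and 15.04 (-0.54 ± 0.12, adjusted p 0.0015), as was Pclo (-0.39 ± 0.10). The median of the vesicle list was 0.02, with 13 of 22 members above 0, and it held 1 call without BN-Lx animal 1, none without SHR animal 4, with the libraries of shared batches alone or in the version 5 table, 2 lower without SHR animal 1 or BN-Lx animal 2, and 4 higher and 2 lower with batch as a factor. Of 274 zinc finger genes 28 were lower and 5 higher, with a median of -0.10, against 2.72% and 1.90% of all genes. In the called genes lower in SHR, BN-Lx animal 1 was the highest of its strain in 81.7%, against 45.2% of all genes. Without that animal none of the 15 GABA-A subunits was called, with a median of -0.23, and 1 zinc finger gene was called. The GABA-A calls were also 0 without SHR animal 1, without SHR animal 4 and with the libraries of shared batches alone, where the zinc finger calls were 1, 0 and 0. Without BN-Lx animal 2, 6 GABA-A subunits and 67 zinc finger genes were lower, and 5 zinc finger genes were higher. That setting called 1256 of all genes lower and 567 higher. With batch as a factor 6 GABA-A subunits and 77 zinc finger genes were lower, and 9 zinc finger genes were higher. That setting called 1863 of all genes lower and 1370 higher. In the version 5 table none of 15 GABA-A subunits was called, with a median of -0.08, and 6 of 235 zinc finger genes were lower and none higher, with a median of 0.01.

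Genes that control blood pressure, and those of drug metabolism and ion channels, were looked up in lists whose counts are to be read against the 4.62% of all genes called. Of 10 genes of the renin-angiotensin system the aminopeptidase Enpep, which turns angiotensin II into angiotensin III, was higher. It stood at 7.76, 7.57 and 7.82 in BN-Lx and 8.08 and 8.44 in SHR (0.54 ± 0.12, adjusted p 0.0014). Enpep was called under 8 of the 11 settings, and its difference was 0.36 without SHR animal 4 and 0.37 with batch as a factor. With batch as a factor 3 genes of this list were higher and 1 lower, beside 1370 and 1863 of all genes. None of 16 genes of natriuretic peptides, nitric oxide and endothelins and none of 9 adrenergic receptors was called, with medians of 0.10 and 0.11. With 2 against 3 animals these counts do not show that the strains are alike. The lists of drug metabolism, channels, chaperones, protocadherins and olfactory receptors held 1 to 3 calls each. Of 51 cytochrome P450 genes Cyp2d1 (0.91 ± 0.29) and Cyp4f6 (0.73 ± 0.19) were higher and Cyp2r1, a vitamin D hydroxylase, was lower (-0.81 ± 0.20). Of 22 alcohol and aldehyde dehydrogenases Aldh1a2, which makes retinoic acid (0.53 ± 0.14), and Aldh9a1 (0.31 ± 0.09) were higher. Of 24 glutathione transferases Gstt4 was lower (-0.96 ± 0.23). Kcnk1 was the 1 call among 89 potassium channel genes (0.38 ± 0.10), Scn2a that among 20 calcium and sodium channel pores (-0.29 ± 0.09) and Olr35 that among 22 olfactory receptors (-0.75 ± 0.19). The chaperones Hspa13 and Dnajb14 were the calls among 64 (-0.44 ± 0.13 and -0.42 ± 0.11), and of 36 clustered protocadherins Pcdhb10, Pcdhb11 and Pcdhb16l were lower by -0.43, -0.41 and -0.35. None of these 8 lists held a call without BN-Lx animal 1, a setting that called 362 of all genes. With batch as a factor, which called 3233 of all genes, each of the lists held at least 1. Of their named genes Cyp2d1 was called under 3 of the 11 settings, Scn2a, Pcdhb11 and Pcdhb16l under 4 each and the others under 5 to 8. No member was called of 10 immediate early genes, 6 monoamine breakdown enzymes, 18 cholesterol synthesis genes, 13 serotonin receptors, 16 clock genes and 2 mitochondrially encoded genes.

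Genes with alleles described in SHR or BN-Lx were looked up as a list of 8, of which 2 were lower, against 2.72% of all genes. Cd36, the SHR lipid transporter gene, was lower in SHR, at 5.09, 4.44 and 4.43 against 3.80 and 3.55 (-0.98 ± 0.30, adjusted p 0.033). Endog, a mitochondrial nuclease, was lower at 7.33, 7.42 and 7.07 against 6.60 and 6.44 (-0.75 ± 0.23, adjusted p 0.036). Each was called under 5 of the 11 settings, and without BN-Lx animal 1 neither was (adjusted p 0.35 for Cd36 and 0.16 for Endog, limma). The other 6 did not pass. Zbtb16, the luxate gene, stood at 10.07, 10.55 and 10.40 against 10.11 and 10.01. Ephx2, the soluble epoxide hydrolase, spread from 7.69 to 9.12 within BN-Lx, with 8.79 and 8.66 in SHR. Wars2, Ogn, Folr1 and Srebf1 differed by -0.12, -0.36, 0.57 and -0.04.

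Ribosomal and respiratory genes held 1 extreme member each. Of 70 cytosolic ribosomal protein genes Rpl37 and Rps6 were lower and none higher, a share like the 2.72% of all genes lower. Rpl37 stood at 10.97, 10.56 and 10.92 in BN-Lx and at 7.39 and 7.59 in SHR (-3.33 ± 0.69, adjusted p 4.5e-04), the largest difference of a gene with a name. Its SHR libraries ran from 5.89 to 9.83, with 9.67 and 9.83 in both libraries of batch 15, and the difference within batches 3, 4 and 6 was -4.88, -3.65 and -1.58. Of 88 nuclear respiratory chain genes Ndufs5, a subunit of complex I, alone was called, against 4.62% of all genes, at 11.65, 11.06 and 11.35 against 10.20 and 9.93 (-1.29 ± 0.15, adjusted p 2.9e-11). Genes of this kind have many processed copies in the genome, so that reads can be shared between a gene and its copies, and both values are uncertain.

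The direction was then checked in the Ensembl 96 gene table of version 5, which is on the rn6 build. It holds SHR animals 1, 2 and 3 and BN-Lx animals 1, 2 and 3, 1 library each, and it shares the 3 BN-Lx libraries and that of SHR animal 1 with the RefSeq table. The column of SHR animal 3 fitted 2 sample labels of the strain. In it 796 of 18309 genes were called, or 4.35%. Of the 964 called genes 635 had a match by symbol, and 547 of these had the same direction, as against 57.3% of all matched genes. In 167 the difference was called in both tables in the same direction, and in 1, Rpl37, in opposite directions. Without SHR animal 1, which leaves animals 2 and 3 that are not in the RefSeq table, 440 of the 635 kept the direction, against 44.6% of all matched genes. Of the 33 matched genes called under all 11 settings, 27 had the same direction and 24 were also called.

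The genes described first were compared in that table where they had a match, which Hpse2, Mpeg1 and Agbl4 had not. Akr1b10 differed by -1.37, Pls1 by -1.05, Gsdma by -2.02, Havcr2 by -1.38, Siglec5 by -0.94, Mei1 by -1.12, Rtel1 by 1.01, Abca9 by 0.80, Ccdc77 by 1.21 and Ifit1 by 2.28, each called and of the same sign. Hpgds (-0.40), Rhbdl2 (0.61), Clca1 (-0.42), Brca2 (-0.41), Ifi44l (-0.45), Cyb561a3 (0.50), Nat8f1 (-0.80) and Il33 (-0.54) were also called in the same direction, each with a smaller difference than in the RefSeq table. Without SHR animal 1, Brca2 and Il33 were not called (adjusted p 0.20 and 0.066, limma). Ddx56 (0.31, adjusted p 0.076, limma) and Etnppl (-0.29) were not called in the whole table. Ifit1 stood at 5.09, 4.97 and 4.97 in BN-Lx and at 7.51, 7.49 and 6.87 in SHR. Mobp (-0.80), RT1-Ba (-1.48), Cd74 (-1.26), Endog (-0.83) and Enpep (0.33) were also called in the same direction. RT1-A1 (0.13), RT1-T24-3 (0.21) and Rsad2 (0.19) were not called. Irf7 was called there at 0.80, but not without SHR animal 1 (0.35, adjusted p 0.49, limma). The blood genes were smaller there and not called: Alas2 differed by 0.49, Slc4a1 by 0.59 and Hba-a1 by 0.15, with SHR animal 1 the highest in Alas2 at 9.83 against 9.55 and 9.19 in SHR animals 2 and 3. Ermn (-0.24), Gabrb2 (-0.11), Gria2 (-0.04) and Col3a1 (0.29) were not called either. Rpl37 stood at 9.39, 8.94 and 8.61 in BN-Lx and at 10.61, 10.90 and 11.01 in SHR, a difference of 1.86 with adjusted p 8.7e-12. The version 5 annotation places the gene of that symbol on chromosome 9 and the version 7.1 annotation on chromosome 2, the only such case among 497 matched genes with a chromosome in both, so the values under that name may not be of 1 locus. Ndufs5, level there at a difference of 0.06, is on chromosome 5 in both.

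The 30 HXB/BXH strains, other animals whose genomes are mosaics of the progenitors, were placed between the SHR and BN-Lx means of the same table. For Rtel1, Abca9, Agbl4, Mei1 and Rpl37 no strain fell in the middle part, when the span between the progenitors was cut into 3 equal parts. The strains nearer SHR were 17 for Rtel1, 15 for Abca9, 16 for Agbl4, 18 for Mei1 and 13 for Rpl37. For Akr1b10, Pls1 and Ifit1 the middle part held 1, 1 and 2 strains, with 14, 12 and 14 strains nearer SHR. Cd36 had 23 strains nearer SHR, 7 nearer BN-Lx and none between. These genes fell into separate groups of strains. Other genes spread without a gap: the middle part held 12 strains for Slc4a1, 11 for Col3a1, 15 for Ermn, 18 for Gabrb2, 12 for Mpeg1 and 15 for Etnppl.

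For Havcr2 all 30 strains were nearer BN-Lx, with means between 7.18 and 7.59, while the SHR animals lay at 5.67 and 5.70. The related strains WKY/NCrl (7.59 ± 0.16, SD of 3 animals) and SHRSP/A3NCrl (7.49 ± 0.19, SD of 2 animals) lay within the range of the BN-Lx animals or next to it. The highest of the 18 SHR/OlaIpcv libraries, at 6.34, lay below the mean of each of these relatives and descendants. Rsad2 and Ins2 each had 29 of 30 strains nearer BN-Lx, with the highest strain at 8.32 against an SHR mean of 8.66 for Rsad2 and at 14.63 against 14.88 for Ins2. Ifit1 was within the BN-Lx range in both relatives, at 4.76 ± 0.28 and 4.75 ± 0.34, but split the HXB/BXH strains. Hpse2 was high in both relatives, at 7.33 ± 0.19 and 7.60 ± 0.62, and Gsdma and Siglec5 lay between the progenitors or near SHR, at 7.47 and 6.18 in WKY/NCrl. Rtel1 was at 9.44 ± 0.03 in WKY/NCrl and 10.14 ± 0.22 in SHRSP/A3NCrl. These strains were not tested against SHR here.

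**Figure D4:**
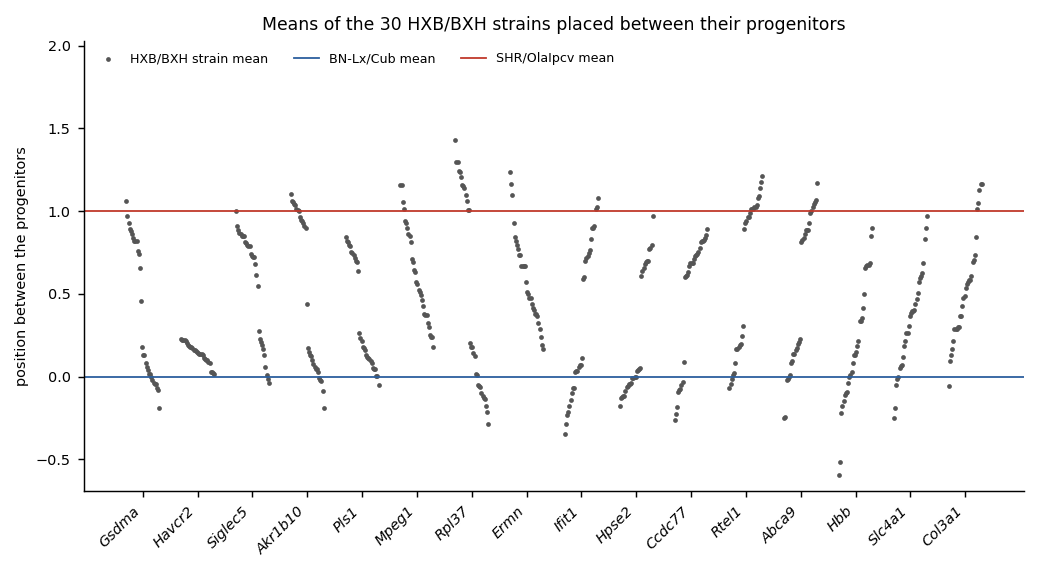
Means of the 30 HXB/BXH strains for 16 genes, scaled so that the BN-Lx/Cub mean is 0 (blue line) and the SHR/OlaIpcv mean is 1 (red line), sorted within each gene. Rtel1, Abca9 and Rpl37 leave a gap between groups of strains, all strains lie near BN-Lx/Cub for Havcr2, and Ermn, Slc4a1 and Col3a1 form a continuous spread.

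By chromosome, known for 14932 genes from the version 7.1 annotation, the called share was highest on chromosomes 18 (6.38%), 20 (6.31%, which holds the MHC) and 2 (6.19%) and lowest on chromosome 13, with 8 of 488 genes, beside 4.49% of these 14932 genes. On chromosome 10, 29 of 40 called genes were higher in SHR, and on chromosome 2, 18 of 62, beside 287 of 670 over these genes.

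**Figure D5:**
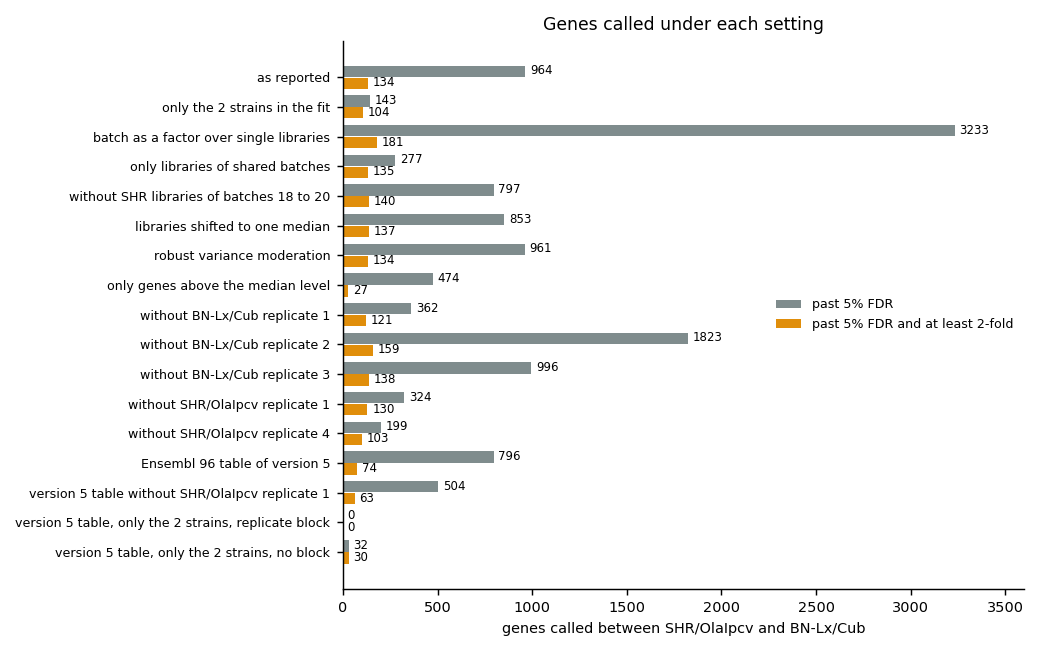
Number of genes called between SHR/OlaIpcv and BN-Lx/Cub under each setting, in grey at 5% FDR and in orange at 5% FDR and at least 2-fold. The grey bars run from 0 to 3233, while the orange bars on the RefSeq table with all genes stay between 103 and 181.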

How the data were processed

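RNA sequencing of rRNA-depleted brain libraries was analysed from 2 tables. Their values are deposited on a log2 scale. For version 5 the authors trimmed reads with Cutadapt, removed ribosomal reads with Bowtie2, aligned the rest with HISAT2 to strain-specific rn6 genomes, estimated counts with RSEM, removed 1 factor of unwanted variation and applied the regularized log of DESeq2. These steps are stated for the authors' own reconstructed table and not for the Ensembl 96 table used here. How the RefSeq table of version 7.1 was scaled and its genome build are not given in the sources used here. A regularized log shrinks differences of low genes. Removing a factor of variation can remove or add differences between batches.

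Repeat libraries sharing a strain and an animal number were averaged, so that 211 libraries gave 194 animals of 73 strains. Of the columns, 3 matched no sample label and were not used. Spike-ins (73) were left out. Differences were tested with limma 3.58.1 (R 4.3.3; strain as factor over all animals, trended moderated variances, two-sided, Benjamini-Hochberg over 20859 genes), so the spread is shared by all strains. No value was filtered out and no pseudocount was added. The script was tested on simulated data. The table of version 5 (132 libraries) was matched by symbol, 14756 genes in all. Its Ensembl gene positions are those of rn6. Promoters are from RefSeq (GRCr8).

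Named genes were, first, the 12 largest differences each way among genes called, above the table's median level, not overlapping between strains and without a placeholder symbol. To these came up to 4 called members of each gene list at any level, and the 8 genes with known alleles whether called or not. Of these 77 genes 1 is not reported here. The members, lists and tests were chosen with earlier results of these data known. Alternatives covered the samples in the fit, batch, scaling, variance moderation, a level filter, the table, the replicate block and single animals. Deposited transcript, isoform and strain-mean tables were not used.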

Additional observations from a re-analysis of the deposited data

Results flagged for a closer look

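Among the 6 libraries of SHR/OlaIpcv animal 4, 24 genes were examined for a library far from the others, and 3 had one. By chance about 1 in 20 such groups would. Rpl37 stood at 9.83 in the library of batch 15, against 6.95 to 7.33 in the other 5. Trim59 stood at 9.28 in the same library, against 8.61 to 8.74. Abca9 stood at 9.21 in the library of batch 20, against 8.98 to 9.06. The Trim59 value lay above the lowest BN-Lx/Cub library, at 9.18. The cause of these values was not tested.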

How the results depend on the processing

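The count of genes past 5% FDR, 964 as reported, was 143 with the 2 strains alone in the fit, 3233 with batch as a factor, 277 with the libraries of shared batches, 474 of 10429 genes above the median level, and 199 to 1823 when single animals were left out. Lowest was the count without SHR/OlaIpcv animal 4 and highest that without BN-Lx/Cub animal 2. It stayed within 1.5 times of the reported count without the SHR/OlaIpcv libraries of batches 18 to 20 (797), with libraries shifted to 1 median (853, with 296 higher and 557 lower), with robust moderation (961) and in the version 5 table (796). The count past 2-fold, 134, was 27 among genes above the median level and 74 in the version 5 table. In settings added after seeing the data, the version 5 table gave 504 and 63 genes without SHR/OlaIpcv animal 1, and 32 and 30 with the 2 strains alone. With the replicate block, possible only in version 5 since the RefSeq table shares animal number 1 alone, limma called 0 genes (648 at an unadjusted p below 0.05). The deviations of same-numbered animals there correlated at -0.485, -0.461 and 0.0755. They are taken from each strain's own mean and so depend on each other, and they do not show whether the numbers pair animals. No pairing of the animals is stated, so the block is not read as pairing.

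Of 891 values of the 76 named genes under the settings on the RefSeq values, 609 kept their direction and their side of the threshold, 279 kept the direction but not the call, and 3, from 2 genes that were not called, turned direction. Ephx2 ran from -0.09 to 0.62 when single animals were left out, below 0 without BN-Lx/Cub animal 1, and Srebf1 from -0.33 to 0.23, above 0 without BN-Lx/Cub animal 2 and, at 0.09, with batch as a factor. In the version 5 values 26 named genes turned direction, in the whole table, without SHR/OlaIpcv animal 1, or both; 1 of them, Rpl37, was called (1.86 and 1.97). The cause was not tested for the others, whose values follow. In both, the whole table first, they were Agrp at 0.01 and 0.04, Ephx2 at -0.09 and -0.17, Folr1 at -0.04 and -0.19, Calr at -0.00 and -0.12, Gabra2 at 0.07 and 0.09, Gria3 at 0.08 and 0.24, Ndufs5 at 0.06 and 0.11, Pcdhb10 at 0.20 and 0.24, Pclo at 0.23 and 0.09 and Zfp945 at 0.01 and 0.12. In the whole table alone they were Dnajb14 at 0.11 and Rnf225 at 0.72. Without SHR/OlaIpcv animal 1 alone they were Aqp1 at -0.13, Gabra3 at 0.03, Gabrb2 at 0.09, Gria2 at 0.16, Grm3 at 0.05, Grm5 at 0.12, Hba-a1 at -0.02, Pcdhb11 at 0.05, Rps6 at 0.06, Scn2a at 0.15, Wars2 at 0.05, Zfp458 at 0.13 and Zfp955a at 0.11.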
